A study of Mus musculus with 4 samples.

Results

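The collagen genes were taken as every entry whose symbol reads Col, a number, a and a number. This gave 44 genes among 24438 gene symbols in the polyA libraries, of which 11 encode chains of the fibrillar collagens, 6 encode the chains of type IV collagen, the collagen of basement membranes, and 27 encode chains of other types. The cells were C2C12, an immortal mouse myoblast line that fuses into myotubes when serum is lowered. Total RNA depleted of ribosomal RNA was sequenced from myoblasts (MB, 24 h before differentiation medium, DM -24 h) and from myotubes (MT, DM 72 h), and polyA RNA was sequenced at DM 48 h from cells transfected with an siRNA against hnRNPL (si-hnRNPL) or with a control oligo (si-NC). All 4 cultures were of the same line, grown in DMEM with 10% fetal bovine serum. The 3 cultures other than MB were then switched to differentiation medium, DMEM with 2% horse serum, and only the polyA pair was transfected. HnRNPL is an RNA-binding protein of the nucleus, and the study asked which genes depend on it. Each condition was sequenced as 1 library, so the differences below have no replicates behind them and were not tested. Differentiated C2C12 cultures are known to keep unfused cells beside myotubes, and in such bulk RNA a change in the number of cells of a type and a change in RNA per cell cannot be told apart.

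Collagens are secreted proteins of 3 chains wound into a triple helix, built on triplets that each start with glycine. Fibrillar collagens (types I, II, III, V, XI, XXIV and XXVII) pack into fibrils, type IV forms the network of the basement membrane that encloses each muscle fibre, and the others coat fibrils (types IX, XII, XIV, XVI, XIX, XX and XXII), form beaded filaments next to the basement membrane (type VI), short-chain networks (types VIII and X) or membrane-spanning and mixed forms. Type VI collagen is known for its part in muscle, since mutations in its genes cause congenital muscular dystrophies. A chain is hydroxylated and folded in the endoplasmic reticulum, exported, trimmed at its ends and cross-linked outside the cell.

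The repeat can be read directly in the coding exons, which are shown because they print the triplet unit that all these chains share. A coding exon made of whole triplets, the first of the gene's commonest such length, is printed in the mm9 build for each of the fibrillar chains Col1a1, Col1a2 and Col3a1, for the type IV chain Col4a1 and for the type VI chain Col6a1, with the glycine codons (GGN) in capitals.
Col1a1, coding exon 8, chr11:94801218-94801271, plus strand: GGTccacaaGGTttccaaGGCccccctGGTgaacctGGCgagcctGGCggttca
Col1a2, coding exon 8, chr6:4465481-4465534, plus strand: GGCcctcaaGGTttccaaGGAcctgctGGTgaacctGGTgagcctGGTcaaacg
Col3a1, coding exon 6, chr1:45382205-45382258, plus strand: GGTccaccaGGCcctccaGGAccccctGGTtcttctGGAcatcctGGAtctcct
Col4a1, coding exon 4, chr8:11246863-11246907, minus strand: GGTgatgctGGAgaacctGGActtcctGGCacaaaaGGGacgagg
Col6a1, coding exon 15, chr10:76180540-76180602, minus strand: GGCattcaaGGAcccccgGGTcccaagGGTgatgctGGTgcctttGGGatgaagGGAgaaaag
Each of the 3 fibrillar exons is 54 bases long and holds 6 glycine codons, while the exon of Col4a1 is 45 bases long with 5 of them and the exon of Col6a1 is 63 bases long with 7. Exons of 54 bases made up 305 of 649 coding exons (47.0%) in the 11 fibrillar genes. They made up 12 of 297 (4.04%) in the 6 type IV genes and 152 of 1050 (14.5%) in 26 other collagen genes. The 54-base unit was not particular to fibrillar genes, since among the others it made up 44.4% of the coding exons of Col22a1, 43.8% of those of Col9a2 and Col9a3 and 36.8% of those of Col9a1, beside 41.2% in Col1a1. In all 6 type VI genes the commonest length of an exon of whole triplets was 63 bases. Of the 44 genes, 43 had a coding transcript under their symbol in GENCODE vM1, and Col26a1 was the exception. The classes differed less in length, with a median transcript of 6119 bases for fibrillar, 6632 bases for type IV and 5140 bases for other chains.

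Levels are given in FPKM, fragments scaled to transcript length and library depth. Being per length, they can be set beside each other between genes, but length scaling alone does not fix the ratio of 2 genes. Col1a1 over Col1a2 was 0.116 in MB and 0.400 in si-NC, so orders, shares and ratios of genes hold for the library they come from. A change is the log2 ratio of FPKM + 1 in a pair of libraries, with a 95% interval from the deposited intervals that covers counting error only. A change was called past 0.58 in either direction, which is the study's 1.5-fold threshold, applied here to FPKM + 1 and so stricter for low genes. Only entries with a mean FPKM of at least 1 over the pair were considered. Summed over entries, the deposited intervals corresponded to 59960176 fragments in MB and 54442423 in MT, and 447184 and 614101 of them lay in collagen genes. In the polyA tables the intervals did not come from whole fragments, so fragment numbers are not given there. HnRNPL's own RNA, Hnrnpl, was at 85.9 FPKM (83.1 to 88.7) in si-hnRNPL and 95.1 FPKM (92.7 to 97.5) in si-NC. It thus stood at 90.4% of the control, and everything said below of the knock-down pair rests on a library with that much Hnrnpl RNA left. The paper also examined the knock-down of hnRNPL protein by Western blot, a measure that these RNA libraries do not hold. The 6 myotube markers summed to 13.6 FPKM in MB and 1251 FPKM in MT. In the knock-down pair they stood at 2605 FPKM with the hnRNPL siRNA and 1792 FPKM with the control, of which Acta1 alone was 1537 and 1009 FPKM.

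Collagen RNA was dominated by a few chains in all 4 libraries. The number of collagen genes at 1 FPKM or more was 17 in each library. The 44 genes summed to 858.5 FPKM in MB, 1130 FPKM in MT, 2405 FPKM in si-NC and 2678 FPKM in si-hnRNPL. Fibrillar chains held 62.3% of that sum in MB, 59.6% in MT, 74.5% in si-NC and 74.9% in si-hnRNPL. Type IV chains held 14.5% in MB and 8.29% in MT, against 5.56% in si-NC and 4.92% in si-hnRNPL. The other chains held 23.2% in MB, 32.1% in MT, 19.9% in si-NC and 20.2% in si-hnRNPL. The total RNA and polyA pairs differ in RNA selection, kit, time and transfection, which cannot be told apart, so their levels are only set side by side.

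**Figure D1:**
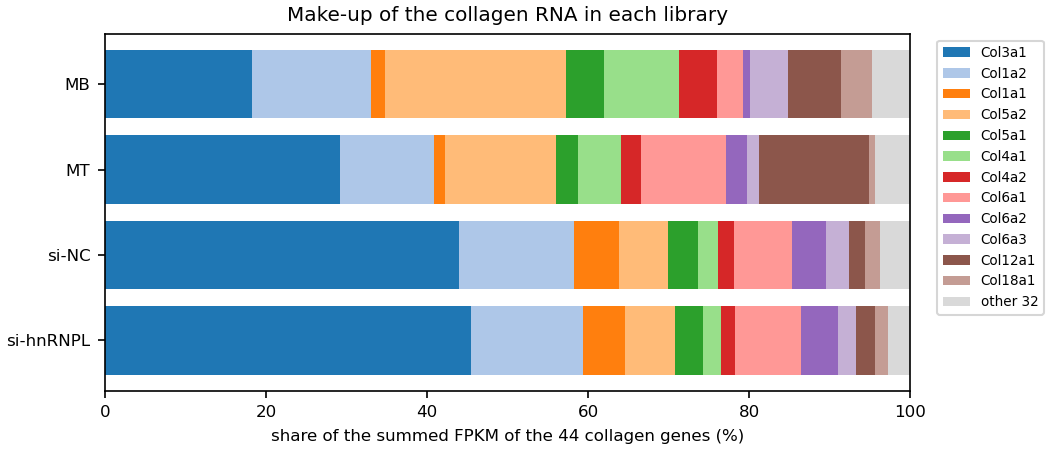
Horizontal bars show the share, in percent, that each of 12 collagen genes took of the summed FPKM of all 44 collagen genes in each library, with the remaining 32 genes in grey. Col3a1 took 18.2% in MB, 29.2% in MT, 44.0% in si-NC and 45.5% in si-hnRNPL.

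The order of the chains differed between the myoblast and the myotube. In MB the highest was Col5a2, a chain of type V collagen that nucleates fibrils, at 193 FPKM (192 to 194). It was followed by Col3a1, the chain of type III collagen, at 156 FPKM, Col1a2 of type I at 127 FPKM, Col4a1 at 80.6 FPKM and Col12a1 at 56.6 FPKM. In MT the order was Col3a1 at 329 FPKM (328 to 331), Col5a2 at 156 FPKM (155 to 157), Col12a1 at 153 FPKM (152 to 154), Col1a2 at 131 FPKM and Col6a1 at 119 FPKM. The intervals of Col5a2 and Col12a1 lay next to each other in MT without overlapping. The 5 highest held 71.4% of the collagen sum in MB and 78.6% in MT. In both polyA libraries the order of the first 5 was Col3a1, Col1a2, Col6a1, Col5a2 and Col1a1.

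**Figure D2:**
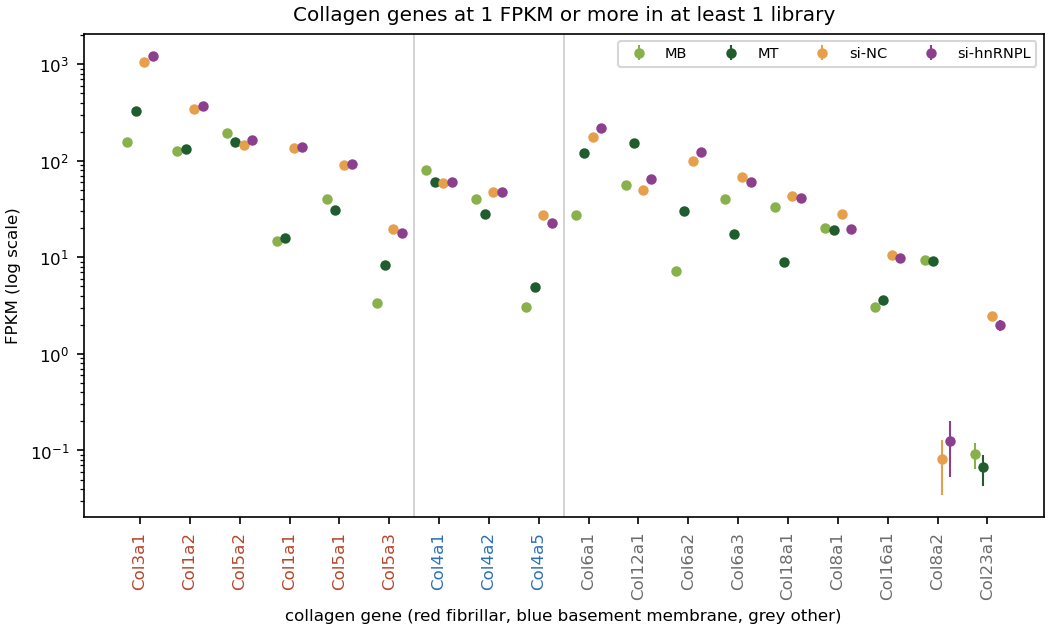
FPKM on a log axis for the 18 collagen genes at 1 FPKM or more in at least 1 library, with 1 point per library (MB light green, MT dark green, si-NC orange, si-hnRNPL purple) and bars for the deposited 95% interval. Col3a1 stands highest in 3 of 4 libraries, and Col8a2 and Col23a1 lie on opposite sides of 1 FPKM in the total RNA and polyA pairs.

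The first comparison sets RNA of the growing myoblast beside that of the myotube. Between MB and MT, 17 of the 44 collagen genes had a mean FPKM of at least 1. Of these, 5 were higher in MT past the threshold (29.4%), where 14.6% of the 11486 named entries considered were. Lower in MT were 2 (11.8%), where 28.9% of all named entries were. The remaining 10 lay between the thresholds. The median change was 0.04 over the collagen genes and -0.21 over all named entries. The 5 higher genes were Col6a1, Col6a2, Col12a1, Col5a3 and Col3a1, the 2 lower genes were Col18a1 and Col6a3, and the calls of these 7 held under all 11 alternatives tried.

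Among the fibrillar genes, 6 of 11 were considered and 2 were called, both higher in MT. Col3a1, whose product forms thin fibrils with type I collagen, was at 156 FPKM in MB and 329 FPKM in MT, a log2 change of 1.07 (1.06 to 1.08). Col5a3, the third chain of type V, was at 3.40 FPKM in MB and 8.30 FPKM in MT, a change of 1.08 (1.01 to 1.15). The other type V chains moved the other way within the threshold. Col5a2 was at 193 FPKM in MB and 156 FPKM in MT (-0.30, -0.31 to -0.29), and Col5a1 was at 40.3 and 30.8 FPKM (-0.38, -0.40 to -0.35). Both of these differences change sign when the libraries are scaled to equal sums, to 0.27 for Col5a2 and 0.18 for Col5a1, and Col5a1 passes the threshold at -0.64 when the median change of 20 bins of transcript length is subtracted. The type I chains differed little, with Col1a2 at 127 FPKM in MB and 131 FPKM in MT (0.04, 0.03 to 0.06) and Col1a1 at 14.7 and 15.9 FPKM (0.11, 0.06 to 0.16).

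Among the type IV genes, 3 of 6 were considered and none was called. The broadly used pair Col4a1 and Col4a2 was lower in MT, at 80.6 FPKM in MB and 60.2 FPKM in MT for Col4a1 (-0.42, -0.44 to -0.40) and 40.6 and 28.3 FPKM for Col4a2 (-0.50, -0.53 to -0.47). Under scaling to equal sums both were above 0, at 0.15 and 0.05, and with the length bins subtracted Col4a2 passed the threshold at -0.67 and Col4a1 at -0.58. Col4a5, a chain of the networks of specialised basement membranes, was at 3.04 FPKM (2.86 to 3.22) in MB and 4.98 FPKM (4.75 to 5.21) in MT. Without the added 1 its FPKM was 1.64 times as high in MT (1.52 to 1.76). The log2 change of Col4a5, 0.56 (0.48 to 0.65), lay just inside the threshold. It was 0.69 with a pseudocount of 0.1 and between 0.78 and 1.02 under the 3 other scalings or centrings, but 0.40 with length bins subtracted and 0.42 with length and GC bins. Col4a3, Col4a4 and Col4a6 stayed under 0.1 FPKM in both libraries.

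Among the other types, 8 of 27 were considered, 3 were higher and 2 lower. The 3 chains that assemble into type VI collagen did not move together. Col6a1 was at 27.7 FPKM in MB and 119 FPKM in MT, a log2 change of 2.06 (2.03 to 2.09), and 2.46% of all named entries had a larger one. Col6a2 was at 7.20 FPKM in MB and 30.0 FPKM in MT, a change of 1.92 (1.86 to 1.98). Col6a3, the large chain of the same molecule, was at 40.2 FPKM in MB and 17.3 FPKM in MT, a change of -1.18 (-1.21 to -1.14). Col6a3 was thus the highest of the 3 in MB and the lowest in MT, and no pair of their intervals overlapped between the libraries. Col6a1 over Col6a3 was 0.688 (0.671 to 0.705) in MB and 6.88 (6.73 to 7.03) in MT, a ratio that no scaling of the libraries alters.

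Col12a1, which binds to the surface of fibrils, was at 56.6 FPKM in MB and 153 FPKM in MT, a change of 1.42 (1.41 to 1.43). Col18a1, a basement membrane proteoglycan core whose end fragment is endostatin, was at 33.0 FPKM in MB and 8.92 FPKM in MT. Its change of -1.78 (-1.83 to -1.72) was the lowest of the 17 genes considered. The short-chain genes Col8a1 (20.1 and 19.1 FPKM, -0.07) and Col8a2 (9.49 and 9.22 FPKM, -0.04) and the fibril-associated Col16a1 (3.07 and 3.59 FPKM, 0.17) lay close to 0, and the interval of Col8a2 included 0. Unnamed assembled units overlapped Col5a1, Col18a1 and Col6a2 among the genes considered, and their part in these values was not tested.

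**Figure D3:**
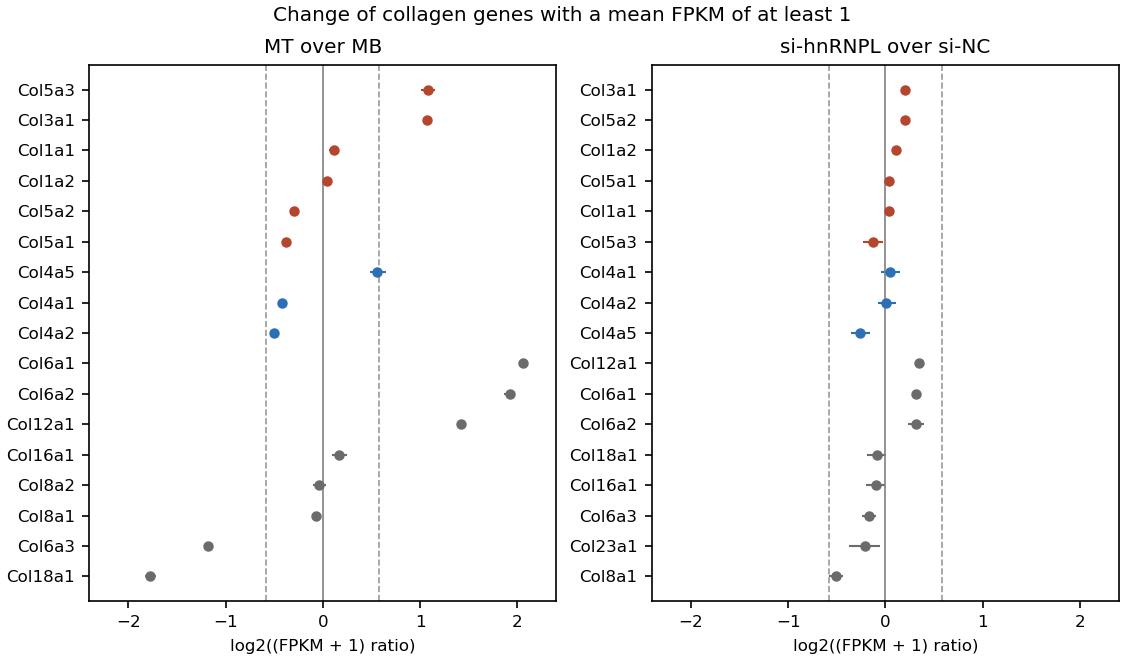
Log2 ratio of FPKM + 1 for the 17 collagen genes with a mean FPKM of at least 1 in each comparison, with bars for the 95% interval (red fibrillar, blue type IV, grey other) and dashed lines at 0.58 either side of 0. In MT over MB the points run from -1.78 for Col18a1 to 2.06 for Col6a1, and in si-hnRNPL over si-NC from -0.51 for Col8a1 to 0.35 for Col12a1.

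As a sum, the fibrillar chains stood 1.26 times as high in MT as in MB, the type IV chains 0.753 times and the others 1.82 times. Scaled to the upper quartile these ratios were 1.53, 0.913 and 2.21, and scaled to equal sums they were 1.87, 1.12 and 2.71. Both scalings raise MT against MB for all genes alike, by 1.21 and 1.49 times, so they could turn the direction of the type IV sum only, which equal sums did. The median over all named entries moved from -0.21 to 0.04 and 0.29 under the same scalings.

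The remaining 27 genes had a mean under 1 FPKM in the total RNA pair, where the added 1 FPKM hides most of a change, so they were compared by FPKM alone, a step chosen after their values were seen. Of these, 19 had at least 20 fragments in the pair together. In 11 of the 19 (57.9%) FPKM was at least 2 times as high in MT, where 37.0% of 2972 named entries in the same range were. In 2 (10.5%) it was at least 2 times as high in MB, against 16.5% of those entries. The counts are a description only, because 7 of the 11 had fewer than 20 fragments in MB and reached that minimum through MT, where they were high, and 1 of the 2 reached it through MB. The 11 were Col14a1, Col11a1, Col19a1, Col24a1, Col25a1, Col26a1, Col28a1, Col13a1, Col27a1, Col6a4 and Col4a4, and the 2 were Col7a1 and Col2a1. The other 6, Col10a1 (0.475 FPKM in MB and 0.776 FPKM in MT), Col11a2, Col17a1, Col23a1, Col4a3 and Col4a6, lay between.

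Col14a1, which like Col12a1 coats fibrils, was at 0.0518 FPKM on 27.0 fragments in MB and at 0.720 FPKM on 393 fragments in MT, 13.9 times as high (9.41 to 21.4). Col11a1, a fibrillar chain best known from cartilage, was at 0.261 FPKM in MB and 0.891 FPKM in MT on 154 and 550 fragments, 3.41 times as high (2.85 to 4.11). Both would pass the threshold without the filter on levels. Col19a1, a rare fibril-associated chain, was at 0.0186 and 0.172 FPKM on 16.0 and 155 fragments, 9.25 times as high (5.52 to 16.6). The fibrillar genes Col24a1 and Col27a1 were 4.52 times (3.03 to 6.95) and 2.15 times (1.74 to 2.67) as high in MT. Col13a1, a membrane-spanning chain that is known at the neuromuscular junction, was listed at 0 in MB and at 0.157 FPKM on 22.5 fragments in MT, at least 7.17-fold higher if 3 fragments are allowed in the MB library. Col25a1, also membrane-spanning and known from motor innervation of muscle, was at 0.00838 and 0.0995 FPKM on 3.48 and 31.9 fragments, a ratio of 11.9 (4.32 to 70.5). Col26a1 rested on 1 fragment in MB and 38.0 in MT, a ratio of 36.3 (6.13 to 1470). Col28a1 was at 0.00889 and 0.0849 FPKM, a ratio of 9.55 (2.97 to 48.9).

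Col7a1, the chain of the anchoring fibrils of skin, was at 0.569 FPKM on 426 fragments in MB and 0.139 FPKM on 109 in MT, 4.09-fold lower (3.31 to 5.10). Col2a1, the fibrillar chain of cartilage, was at 0.158 FPKM in MB and 0.00483 FPKM in MT, on 61.7 and 1.37 fragments, so its ratio of 32.6 has an interval from 7.77 to 1802. The 8 genes with fewer than 20 fragments were Col9a1, Col9a2, Col9a3, Col15a1, Col20a1, Col22a1, Col6a5 and Col6a6, all under 0.04 FPKM in this pair, and Col9a1 was listed at 0 in all 4 libraries. The nuclear RNAs Malat1 and Neat1 were also higher in MT, Malat1 at 161 FPKM in MB and 628 FPKM in MT and Neat1 at 14.3 and 48.8 FPKM, and their part in the values of low collagen genes in total RNA was not tested.

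**Figure D4:**
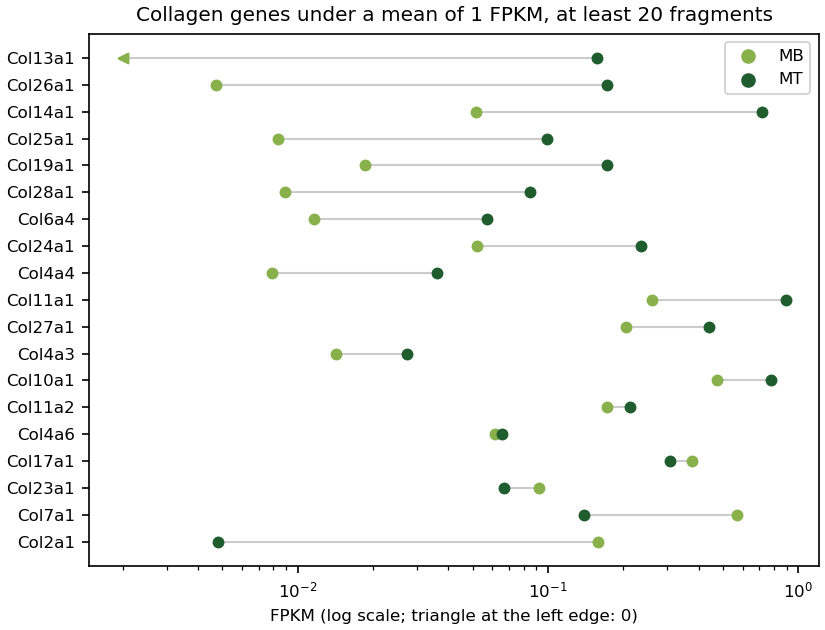
FPKM on a log axis in MB (light green) and MT (dark green) for the 19 collagen genes under a mean of 1 FPKM with at least 20 fragments in the pair, joined by a line per gene and ordered by the ratio of MT to MB. Col13a1 is drawn as a triangle because it was at 0 in MB, and the widest falls are those of Col2a1 and Col7a1 at the bottom.

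The second comparison asked which genes depend on hnRNPL in differentiating cells. Between si-hnRNPL and si-NC, 17 collagen genes were considered, the same as above but with Col23a1 in place of Col8a2. None passed the threshold in either direction. Over all 11234 named entries 1.36% were higher and 0.863% lower, so fewer than 1 of 17 would be past the threshold at the share of the whole table, and the count of 0 says nothing particular of collagens. The changes ran from -0.51 to 0.35 with a median of 0.04, beside -0.01 over all named entries, of which the middle 90% lay between -0.33 and 0.36.

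Col8a1, a short-chain collagen, was furthest from 0 at 19.5 FPKM (18.7 to 20.4) in si-hnRNPL and 28.3 FPKM (27.5 to 29.1) in si-NC. Its change was -0.51 (-0.58 to -0.44), 1.42% of all named entries had a lower one, and scaled to equal sums it passed the threshold at -0.61. At the other end were 3 of the genes that were higher in MT than in MB. Col12a1 was at 64.1 FPKM in si-hnRNPL and 50.0 FPKM in si-NC (0.35, 0.32 to 0.38), Col6a1 at 217 and 175 FPKM (0.31, 0.28 to 0.34) and Col6a2 at 123 and 99.0 FPKM (0.31, 0.23 to 0.40). With the median change of length bins subtracted, these 3 were at 0.50, 0.36 and 0.37, and Col8a1 at -0.43. Scaled to equal sums, the 3 were at 0.25, 0.20 and 0.21. Of the 6 myotube markers, Acta1 (1009 FPKM in si-NC and 1537 FPKM in si-hnRNPL, 0.61) and Ckm (45.0 and 74.3 FPKM, 0.71) were higher past the threshold in si-hnRNPL, where 1.36% of all named entries were. Myog (0.51), Tnnt3 (0.43) and Myh3 (0.36) stayed inside it, and Myh1 was at 7.52 and 7.11 FPKM (-0.07). The part of these markers in the collagen values was not tested.

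The fibrillar genes lay within 0.20 of 0 in FPKM as deposited. Col3a1 was at 1218 FPKM (1212 to 1224) in si-hnRNPL and 1058 FPKM (1053 to 1063) in si-NC, a change of 0.20 (0.19 to 0.21), and ranked 23 and 20 among all named entries of these libraries. Col5a2 was at 166 and 144 FPKM (0.20), Col1a2 at 370 and 342 FPKM (0.11), Col5a1 at 93.4 and 90.5 FPKM (0.04) and Col1a1 at 140 and 137 FPKM (0.04), the last pair being at -0.06 when scaled to equal sums. Col5a3 was the exception on the lower side, at 17.9 and 19.7 FPKM (-0.13, -0.23 to -0.02). It was at only -0.01 with the median change of length bins subtracted, but at -0.23 when scaled to equal sums. The same subtraction raised the others, Col5a2 to 0.31, Col3a1 to 0.29, Col1a2 to 0.20, Col5a1 to 0.19 and Col1a1 to 0.13. The sum of the fibrillar chains was 1.12 times that of si-NC, and 1.04 times when scaled to equal sums.

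Of the type IV chains, Col4a1 (60.7 and 58.4 FPKM, 0.05) and Col4a2 (47.9 and 47.5 FPKM, 0.01) had intervals that included 0. Col4a5 was at 22.9 FPKM in si-hnRNPL and 27.5 FPKM in si-NC, a change of -0.26 (-0.35 to -0.16). Col6a3 was at 60.8 and 68.7 FPKM (-0.17), which put it on the other side of 0 from Col6a1 and Col6a2 in this pair too. With the median change of length bins subtracted, however, Col6a3 was at only -0.02, and scaled to equal sums at -0.27. Col23a1, a membrane-spanning chain, was at 1.98 and 2.46 FPKM (-0.21), while Col18a1 (40.9 and 43.6 FPKM, -0.09) and Col16a1 (9.74 and 10.5 FPKM, -0.10) had intervals that included 0. The 27 genes under a mean of 1 FPKM in this pair ranged from 0 to 0.567 FPKM, the highest being Col28a1 with 0.540 in si-hnRNPL and 0.567 in si-NC.

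Chains that share a molecule were not at equal RNA levels, and the ratios differed between the total RNA and polyA pairs. Type I collagen protein holds more alpha 1 than alpha 2 chains, while the RNA ratio of Col1a1 over Col1a2 was 0.116 (0.113 to 0.119) in MB and 0.122 (0.119 to 0.125) in MT. In polyA RNA si-NC gave a ratio of 0.400 (0.394 to 0.405) and si-hnRNPL one of 0.379 (0.373 to 0.386). Col1a1 itself was at 14.7 and 15.9 FPKM in total RNA beside 137 and 140 FPKM in polyA RNA. Col4a1 over Col4a2 was 1.99 (1.96 to 2.02) in MB and 2.13 (2.09 to 2.17) in MT, beside 1.23 in si-NC and 1.27 in si-hnRNPL. Col6a1 over Col6a2 held between 3.84 (3.66 to 4.03) in MB and 3.96 (3.87 to 4.05) in MT, and was 1.77 and 1.76 in si-NC and si-hnRNPL.

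The total RNA and polyA tables also disagreed on Col8a2. It was at 9.49 FPKM (9.15 to 9.82) in MB and 9.22 FPKM (8.90 to 9.54) in MT, but at 0.0818 FPKM (0.0344 to 0.129) in si-NC and 0.126 FPKM (0.0531 to 0.200) in si-hnRNPL. Col23a1 went the other way, at 0.0921 and 0.0670 FPKM in total RNA beside 2.46 and 1.98 FPKM in si-NC and si-hnRNPL. Col8a1, the partner of Col8a2, was between 19.1 and 28.3 FPKM in all 4.

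Several members lie beside each other in the genome, and neighbours did not always move alike. Col6a2 (chr10:76058507-76086375, minus strand) and Col6a1 (chr10:76171537-76188913, minus strand) lie 85.2 kb apart in mm9, and both were higher in MT by similar amounts. Col18a1 (chr10:76514923-76629293) lies a further 326 kb along the same strand and had the lowest change of the 17 genes considered. Col3a1 (chr1:45368383-45406551, plus strand) and Col5a2 (chr1:45431166-45560127, minus strand) end 24.6 kb from each other. Their changes from MB to MT were 1.07 and -0.30, while in the knock-down pair both were 0.20. Col4a5 and Col4a6, 1.31 kb apart and transcribed away from each other on the X chromosome, were at 3.04 and 0.0614 FPKM in MB and at 27.5 and 0.260 FPKM in si-NC. Col4a3 and Col4a4, which start 71 bases apart, were both under 0.04 FPKM in every library.

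Col4a1 and Col4a2 start within 21 bases of each other on opposite strands, and their changes lay side by side in both comparisons, at -0.42 and -0.50 from MB to MT and at 0.05 and 0.01 in the knock-down pair. The CCAAT letters that precede the Col4a2 start lie inside the Col4a1 transcript, and the stretch from -40 to -11 is printed from RefSeq (GRCm38.p6) because it belongs to both genes, with CCAAT in capitals.
Col4a2, chr8:11312765-11312794, plus strand: ggagctccCCAATttgttggcgctgccccc
RefSeq promoters, from 250 bases before to 50 after a start, were at hand for 35 of the 44 genes (38 promoters). CCAAT was found on either strand in 13 of the 38, where 37.4% of 32851 promoters held it. TATAAA was found in 5 (13.6% of all) and CAGCTG, an E-box that MyoD can bind, in 7 (16.3% of all). These are matches of letters and not binding sites.

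Genes that handle collagen were counted from 6 lists, and their changes from MB to MT are given beside the same median of all named entries. Of 16 genes for modification and folding that were considered, 5 were lower in MT and none was higher, where 28.9% of all named entries were lower and 14.6% higher, so the lower count is near the background. Their median was -0.36 beside -0.21. Scaled to equal sums, 3 were higher, none was lower and the median was 0.19. At that setting 3829 of 11486 named entries were higher and 1338 lower, with a median of 0.29. The most abundant were P4hb, a subunit of prolyl 4-hydroxylase, at 297 FPKM in MB and 189 FPKM in MT (-0.65), and Serpinh1, the collagen chaperone HSP47, at 273 and 211 FPKM (-0.37). Also lower past the threshold were Fkbp10 (103 and 50.2 FPKM, -1.02), Crtap (48.5 and 29.4 FPKM, -0.70), Plod3 (39.4 and 24.1 FPKM, -0.69) and P4ha2 (25.1 and 13.8 FPKM, -0.82). Of 5 secretion genes, Creb3l1, a transcription factor of collagen export, was at 26.3 and 11.5 FPKM (-1.13), Sec24d at 50.5 and 29.3 FPKM (-0.76) and Trappc2 at 13.2 and 20.9 FPKM (0.62), with a median of -0.41 that was 0.14 under equal sums.

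Of 10 genes for procollagen cleavage and cross-linking, 4 were lower and 2 higher in MT with a median of -0.31, where 28.9% and 14.6% of all named entries were, and nothing particular is read from so few genes. Under equal sums 2 were lower and 4 higher with a median of 0.26. Over 11486 named entries 1338 were then lower and 3829 higher, with a median of 0.29. Pcolce2, an enhancer of procollagen C-proteinase, went from 70.6 FPKM in MB to 8.55 FPKM in MT (-2.91, -2.99 to -2.83), while Pcolce, its more abundant relative, was at 203 and 176 FPKM (-0.21). The cross-linking enzymes Loxl3 (-0.76), Loxl4 (-1.17) and Loxl2 (-0.83) were lower, and Loxl1 (27.3 and 42.4 FPKM, 0.61) and the N-proteinase Adamts2 (4.26 and 9.69 FPKM, 1.02) higher. Lox was at 75.0 and 56.3 FPKM (-0.41).

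Of 7 collagen receptors, 4 were higher in MT and none lower, with a median of 0.70, where 14.6% of all named entries were higher and 28.9% lower. These were Mrc2, which takes up collagen fragments (10.5 and 27.8 FPKM, 1.33), Itga10 (0.260 and 1.78 FPKM, 1.14), Itga11 (0.836 and 2.35 FPKM, 0.87) and Adgrg1, a receptor of type III collagen (2.81 and 5.20 FPKM, 0.70). Of these, Itga10 and Itga11 were under 1 FPKM in MB and passed the filter on levels through MT, where they were high. Itgb1, the shared beta chain of the integrins, was the most abundant at 153 and 141 FPKM (-0.12). Of 5 degradation genes, the protease Mmp2 was at 42.9 FPKM in MB and 158 FPKM in MT (1.85). The protease inhibitors Timp1 at 282 and 117 FPKM (-1.26) and Timp3 at 69.5 and 41.3 FPKM (-0.74) were lower. The inhibitor Timp2 moved the other way within the threshold, at 116 and 168 FPKM (0.52). So did the protease Mmp14, at 63.1 and 94.0 FPKM (0.57). The median of the 5 degradation genes was 0.52, with 1 higher and 2 lower, where 14.6% and 28.9% of all named entries were. Scaled to equal sums, 3 were higher and 1 lower with a median of 1.09. Of 11486 named entries 3829 were then higher and 1338 lower, with a median of 0.29. Nothing particular is read from so few genes.

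Of 13 partners of type IV collagen in the basement membrane, 3 were higher and 4 lower, with a median of 0.03. Over all named entries 14.6% were higher and 28.9% lower, so the lower count is near the background. Of the 3 higher, Lama4 passed the filter on levels through MT alone. Scaled to equal sums, 6 were higher and 2 lower with a median of 0.57, so the balance of directions depends on the scaling. All named entries shifted too, with 3829 of 11486 higher, 1338 lower and a median of 0.29. The linkers nidogen 1 and 2 moved in opposite directions, Nid1 from 101 FPKM in MB to 41.2 FPKM in MT (-1.28) and Nid2 from 35.4 to 69.1 FPKM (0.94). Lama2, the laminin chain of the muscle basement membrane, was at 4.21 and 15.9 FPKM (1.70) and Lama4 at 0.297 and 2.06 FPKM (1.24), while Lamb1 (56.9 and 28.7 FPKM, -0.97), Lamc1 (23.0 and 12.8 FPKM, -0.80) and Lamb3 (6.88 and 2.79 FPKM, -1.06) were lower. In the knock-down pair none of the 54 genes considered in these 6 lists passed the threshold, where 1.36% of all named entries were higher and 0.863% lower, so the count of 0 says nothing particular of these lists. Their medians lay between -0.15 for the basement membrane partners and 0.15 for modification and folding, beside -0.01 for all named entries, with Ddr2 (36.5 FPKM in si-NC and 27.0 FPKM in si-hnRNPL, -0.42), Nid1 (214 and 161 FPKM, -0.41) and Nid2 (93.7 and 121 FPKM, 0.37) furthest from 0.

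**Figure D5:**
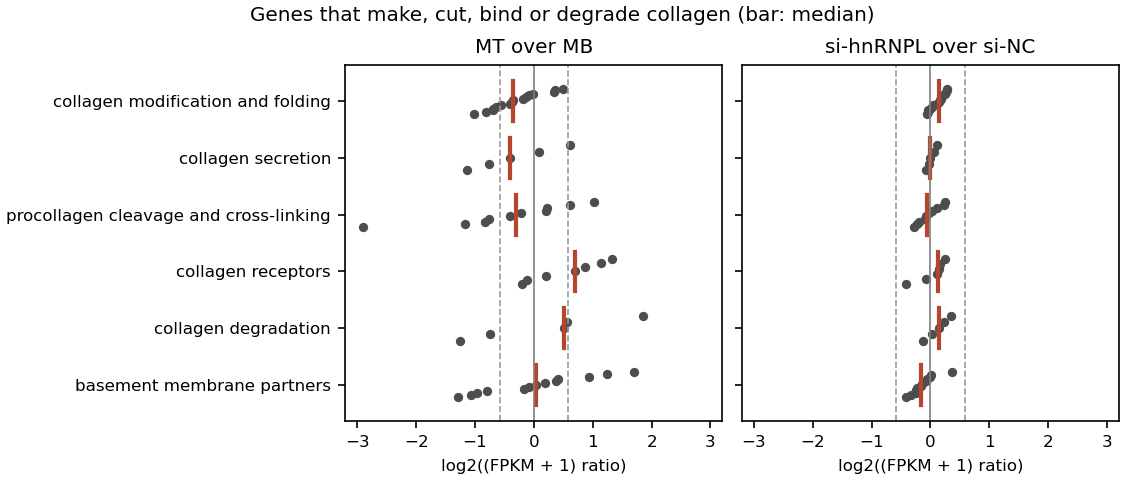
Log2 ratio of FPKM + 1 for genes of 6 lists with a mean FPKM of at least 1 (grey points, 1 per gene) and the median of each list (red bar), for MT over MB and si-hnRNPL over si-NC, with dashed lines at 0.58 either side of 0. In MT over MB the medians run from -0.41 for secretion to 0.70 for receptors, and in the knock-down pair every point lies inside the dashed lines.

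Other cell types that make collagen were looked for by their markers. Of 6 fibroblast markers, 3 were considered between MB and MT, Ly6a at 54.3 and 169 FPKM (1.62), Dpt listed at 0 in MB and at 3.62 FPKM in MT, and Pdgfra at 2.14 and 3.38 FPKM (0.48). Dpt passed the filter on levels through MT alone. The other 3 were under 1 FPKM in both libraries. Lum was listed at 0 in MB and at 0.246 FPKM in MT, Thy1 was at 0.00766 and 0.0438 FPKM, and Tcf21 was at 0 in both. In the polyA pair Thy1 and Tcf21 were at 0 in both libraries. The 6 summed to 56.4 FPKM in MB, 177 FPKM in MT, 670 FPKM in si-NC and 572 FPKM in si-hnRNPL, nearly all of it Ly6a. In si-NC and si-hnRNPL, Ly6a was at 656 and 558 FPKM (-0.23) and Lum at 3.17 and 2.32 FPKM (-0.33). On the other side of 0 were Pdgfra at 3.80 and 4.91 FPKM (0.30) and Dpt at 6.28 and 7.34 FPKM (0.20). Ly6a is also made by C2C12 and other myogenic cells, and the part of these genes in the collagen values was not tested. The 5 chondrocyte markers summed to 5.75 FPKM in MB and 4.04 FPKM in MT, nearly all of it Sox9. The 5 osteoblast, 4 adipocyte and 4 endothelial cell markers summed to at most 1.69 FPKM in any library. The 5 myoblast markers summed to 200 FPKM in MB and 393 FPKM in MT. Des (98.7 and 195 FPKM, 0.98), Cdh15 (45.9 and 110 FPKM, 1.24) and Myod1 (36.6 and 65.9 FPKM, 0.83) were higher past the threshold, where 14.6% of all named entries were. Pax7 (4.85 and 7.42 FPKM, 0.53) and Myf5 (13.8 and 13.6 FPKM, -0.01) were not.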

How the data were processed

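Reads were trimmed by the authors, those shorter than 36 bp were dropped, and the rest were mapped to the mouse genome (mm9) with TopHat and quantified with Cufflinks. The deposited tables give FPKM per gene with a 95% interval, and these FPKM values were used as deposited. The total RNA tables also hold unnamed assembled units, which were left out of all comparisons. The columns of unrelated samples numbered 0. Collagen genes were chosen by symbol, and they, the gene lists and the classes were chosen with earlier results of these data known. All members were named, those with a mean FPKM of at least 1 with both values. Other genes were named by the rule that the most abundant of a list and those past the threshold are given. The number of fragments was taken from the interval, as the square of 2 FPKM over its upper width. It came out whole, within 0.02, for 90.9% of entries below 200 fragments in MB and 90.8% in MT, but for 40.7% in si-NC and 39.3% in si-hnRNPL. Changes, intervals and sums were computed in Python 3.11.15 with numpy 2.4.6, pandas 2.3.3 and scipy 1.17.1, and the steps were tested on simulated data. Transcript lengths, exons and GC content came from GENCODE vM1 (mm9), and promoters from RefSeq (GRCm38.p6). The alternatives were pseudocounts of 0.1 and 0.01, no filter, a mean of at least 5, a threshold of 1, centring on the median, upper-quartile scaling, scaling to equal sums over loci of at least 300 bp, 20 bins of transcript length, and entries summed per symbol. Bins of length and GC content together, over 3 rounds, were added after the data were seen.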

Additional observations from a re-analysis of the deposited data

How the results depend on the processing

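Of the counts and medians over the collagen genes, 3 counts moved by more than 1.5 times, and no median left the interval of the reported one (-0.38 to 1.07 from MB to MT, -0.13 to 0.20 in the knock-down pair). Scaled to equal sums, 9 in place of 5 were higher in MT, Col1a1, Col1a2, Col16a1 and Col4a5 being added. At that setting 3829 of 11486 named entries were higher, in place of 1672. In the knock-down pair 1 in place of 0 was lower in si-hnRNPL, namely Col8a1, where 183 of 11234 named entries were. With the median change of 20 length bins subtracted, 5 of 17 in place of 2 were lower in MT, Col5a1, Col4a1 and Col4a2 being added. At that setting 2951 of 10336 named entries were lower, so the 5 are near the background. With length and GC bins together the count was 2 again, where 2919 of 10336 named entries were lower. The count higher in MT was 6 with either smaller pseudocount, with centring and with the upper quartile, and 7 with no filter. Of 11486 named entries, 1950 and 1976 were higher with those pseudocounts, 2423 with centring and 2533 with the upper quartile. With no filter 1942 of 18624 were. The median over collagen genes stayed between -0.04 and 0.61 from MB to MT and between -0.06 and 0.13 in the knock-down pair. No called gene changed direction under any of the 11 alternatives. Over all named entries in the knock-down pair, 153 higher and 97 lower became 249 and 191 with a pseudocount of 0.1, while restriction to the 9958 entries with a transcript length alone gave 87 and 76, and subtracting length bins in that set gave 52 and 75. In that set changes and transcript length had a Spearman correlation of -0.43 across entries that share their libraries. The cause of these shifts was not tested. No paired analysis was possible because each condition had 1 library, and for the same reason no library could be left out. Counting error limits genes under 1 FPKM most, but it also leaves Col4a5 (0.48 to 0.65) on either side of the threshold from MB to MT and Col18a1 and Col16a1 on either side of 0 in the knock-down pair, and the intervals hold no variation between cultures.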
